A study of Rattus norvegicus with 18 samples.

Results

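The highest and the lowest osmolality of the series were compared without the drug, in primary cultured cells of the rat inner medullary collecting duct, the last stretch of the kidney tubule and the place where urine reaches its final concentration. Chosen by their titles, 6 of the 18 arrays enter this comparison: 3 of cells cultured at 300 mosmol/kg (the 300 culture) and 3 of cells cultured at 600 mosmol/kg and then held at 900 mosmol/kg for 24 h (the 900 challenge). The 3 arrays of cells kept at 600 mosmol/kg (the 600 culture) were set between them, to see how much of each difference that culture already shows. Beside these the series holds cells of the 300 culture after 24 h at 600 mosmol/kg, called the 600 challenge, and both challenges in the presence of 5 µM cyclosporin A. Below, the words at 600 and after 600 refer to the 600 culture, not to the 600 challenge. No group used here received the drug. Separate animals or cultures behind the arrays of a group are not named in the labels, so p-values cover the spread among these arrays only, and that spread could be technical. No mock-moved culture was analysed here, so the second part of the span, from the 600 culture to the 900 challenge, holds both the move and the higher osmolality. It also holds a stay of only 24 h at the new osmolality, whereas the 300 and 600 cultures had no challenge. The move, the osmolality and the time at it cannot be told apart, and a share present at 600 sets a culture beside a challenge.

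As background, cells of the inner medulla live in fluid far more concentrated than plasma. They balance it by accumulating organic osmolytes such as sorbitol, inositol and betaine, largely through the transcription factor NFAT5, and by making chaperones that protect proteins. Principal cells of the collecting duct take up water through aquaporins and urea through urea transporters under the control of vasopressin, and collecting duct cells lose these features in culture at plasma osmolality.

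Levels are the deposited log-scale values, and the sources used here do not state their base. Differences are therefore in log units, where 1 unit means 2-fold for base 2 and 2.72-fold for the natural logarithm. A feature is a probe set of the array, and it was called where its adjusted p fell under 0.05 (limma on all 18 arrays, Benjamini-Hochberg over 28328 features). Array medians lay between 3.564 and 3.649, and lower quartiles between 2.476 and 2.696. Whether levels under the lower quartile exceed background is unknown, and a difference that starts there may be understated. The median SD of a feature over its 3 arrays was 0.108 in the 300 culture, 0.116 in the 600 culture and 0.121 in the 900 challenge. The small number of arrays limits the precision of all values.

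Between the 900 challenge and the 300 culture 8973 features were called, 31.7% of all, of which 3889 were higher (13.7%) and 5084 lower (17.9%) in the 900 challenge. Of these, 696 rose and 920 fell by at least 1 log unit. Among the 15295 features with 1 gene symbol 40.3% were called, against 21.5% of the other features. The 3 arrays of each group did not overlap for 43.1% of all features, and 31.1% were called without overlap.

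The largest rise was that of Aqp2, the vasopressin-regulated water channel of the apical membrane. Its levels were 1.62, 1.72 and 1.49 on the arrays of the 300 culture, 6.84, 6.32 and 6.33 in the 600 culture, and 8.02, 7.92 and 7.88 in the 900 challenge. The 3 groups did not overlap, and all 3 arrays of the 300 culture lay under the lower quartile. The rise was 6.33 ± 0.14 log units (SE, n = 3 arrays a group, limma adjusted p = 1.97e-13), which is 80.4-fold with base 2 and 561-fold with a natural logarithm. On the log scale the 600 culture showed 77.2% of the rise (95% interval 72.8 to 81.6%). In the 600 challenge, which reached the same osmolality in 24 h, Aqp2 averaged 2.28.

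A stretch of the RefSeq promoter of Aqp2 (GRCr8, chr7:132590036-132590114, plus strand) is printed because this gene changed most. Capitals mark the reverse complement of AGATAA, the core letters bound by GATA factors, whose genes Gata2 and Gata3 also rose (2.55 ± 0.16 and 1.27 ± 0.05).
Aqp2: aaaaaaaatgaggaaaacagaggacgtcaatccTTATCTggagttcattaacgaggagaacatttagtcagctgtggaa
On either strand AGATAA stands in 2 of the 15 available promoters of the principal cell list (Aqp2 and Kcnj10) and in 11.3% of 27457 promoters, each from 250 bases before to 50 after the gene start. Of these 2 genes Aqp2 rose and Kcnj10 was not called (-0.08). A match of letters is a description of the sequence and not a binding site.

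The principal cell and urine concentration list held 22 measured genes, of which 16 rose and none fell, against 40.3% of 14499 genes called in either direction. Of those 14499 genes 17.5% were higher and 22.7% lower, the shares to set beside the counts of every list below. Each gene of a list is read from its feature with the highest mean level. The median difference of the list was 1.50 log units, of which 1.21 was present at 600, beside -0.02 over all genes. The list's levels summed over its genes were 78.70 to 79.64 in the 300 culture, 109.3 to 112.8 in the 600 culture and 117.7 to 118.6 in the 900 challenge. Slc14a2, the urea transporter of the inner medulla, read 2.06, 1.93 and 1.97 in the 300 culture, 6.03, 5.67 and 5.61 in the 600 culture, and 7.09, 7.06 and 6.91 in the 900 challenge. Its rise of 5.03 ± 0.11 put it next to Aqp2, again with no overlap of the groups. Aqp3, the water channel of the basolateral side, went from 3.14, 2.85 and 2.62 through 6.18, 5.75 and 5.87 to 6.77, 6.66 and 6.73. The vasopressin receptor Avpr2 rose by 3.38, with 68.9% present at 600.

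The ETS factor Elf5 rose by 3.92 ± 0.12, the mineralocorticoid receptor Nr3c2 by 1.73 ± 0.18 and the kidney cadherin Cdh16 by 1.54 ± 0.04. The basolateral water channel Aqp4, with a mean of 3.40 in the 300 culture, 5.80 in the 600 culture and 5.49 in the 900 challenge, showed 115% of its rise at 600. The rise of the adenylyl cyclase gene Adcy6 (0.84) came mostly after 600, which showed 20.6% of it. The 6 members not called included the glucocorticoid-inactivating enzyme gene Hsd11b2 and 2 subunits of the epithelial sodium channel, Scnn1b and Scnn1g. Hsd11b2, Scnn1b and Scnn1g had means between 1.83 and 2.81 in every group. The third subunit, Scnn1a, rose by 1.55. In the 300 culture, although its cells are labelled as collecting duct, Aqp2, Slc14a2, Scnn1b, Scnn1g, Hsd11b2 and Nr3c2 were on average under the lower quartile. Other members of the list stood well above it there, such as Cdh16 (6.77), Gata3 (6.26) and Elf3 (6.20), and the median level of the list was 3.24. The epithelial genes Epcam, at 7.96 to 7.99, and Krt8, at 8.12 to 8.14, were high in the 300 culture.

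**Figure D1:**
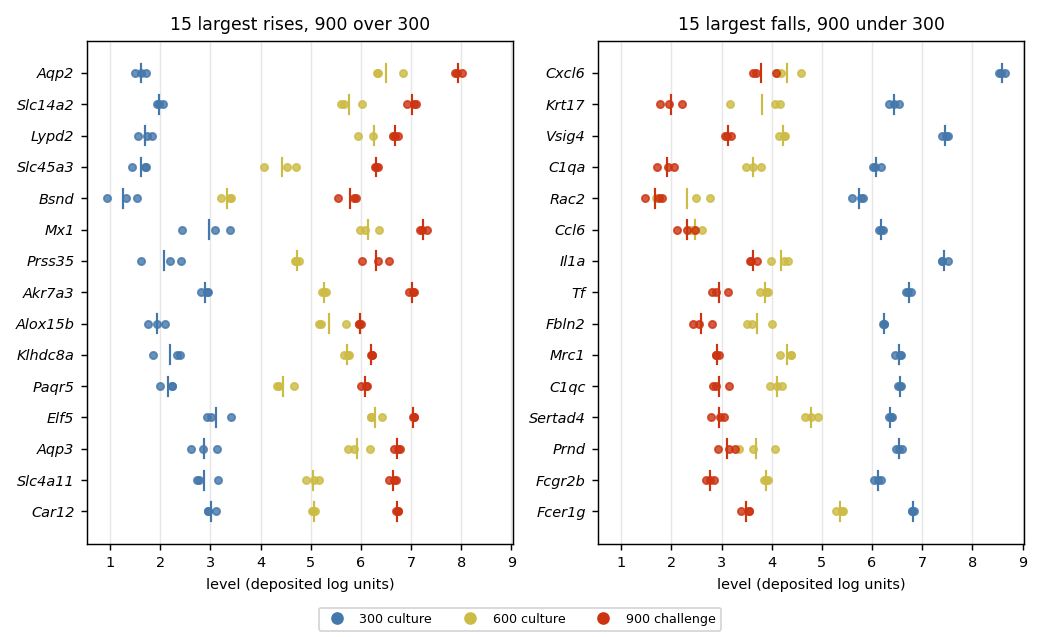
Levels of the 15 named genes with the largest rise (left) and the 15 with the largest fall (right), in deposited log units on the x axis. Points are single arrays and ticks are means of 3 arrays, coloured by group. The 900 challenge and the 300 culture do not overlap for any gene shown, which the choice of genes required, and the mean of the 600 culture lies between theirs for each, as for Aqp2 at a mean of 6.50 between 1.61 and 7.94.

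The other largest rises belong to several roles. Slc45a3, a solute carrier, rose by 4.70 ± 0.13, and Slc4a11, a membrane transporter, by 3.75 ± 0.12. Bsnd, which encodes the barttin subunit of kidney chloride channels, rose by 4.51 ± 0.19 from 0.93, 1.32 and 1.54 to 5.91, 5.55 and 5.87, and its levels of 3.40, 3.21 and 3.38 in the 600 culture made up 45.7% of that. The aldehyde reductase gene Akr7a3 went from 2.94, 2.81 and 2.96 through 5.26, 5.31 and 5.22 to 7.05, 7.04 and 6.96. Its rise of 4.12 ± 0.06 had the smallest standard error among the 15 rises. Alox15b, a lipoxygenase, rose by 4.05 with 84.6% present at 600, Paqr5, a membrane progestin receptor, by 3.92 with 58.7%, and Car12, a membrane carbonic anhydrase, by 3.71 with 55.2%. Lypd2 (4.98), Prss35 (4.22) and Klhdc8a (4.02) complete the set, with Mx1 and Elf5.

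In the loop of Henle list 9 of 10 measured genes rose and none fell, with a median of 1.67. The member not called was Umod, with means of 2.69 in the 300 culture, 2.61 in the 600 culture and 2.87 in the 900 challenge. Beside Bsnd the genes that rose included Aqp1, the water channel of the thin descending limb, and Cldn10, a tight junction channel, which rose by 2.54. Aqp1 rose by 3.25 ± 0.08, from 4.88 to 4.92 in the 300 culture to 8.11 to 8.18 in the 900 challenge. Slc12a1, the salt carrier of the thick limb, read 2.65, 2.36 and 2.86 in the 300 culture, 4.56, 4.41 and 4.66 in the 600 culture and 4.84, 4.72 and 4.86 in the 900 challenge. Summed levels of this list were 30.23 to 31.46, 44.05 to 44.72 and 48.58 to 49.14 in the 3 groups, and the part of other tubule cells in the rise of the principal cell genes was not tested. In the intercalated cell list 3 of 15 genes rose and 2 fell, with a median of 0.00. Those that rose were Car12 (3.71), Car2, a cytosolic carbonic anhydrase (1.32), and the ammonia transporter gene Rhbg (1.21). The defining factor Foxi1 (1.71 and 1.75 at the ends) and the anion exchanger Slc4a1 (1.92 and 1.86) were not called and lay under the lower quartile. Slc26a4, the anion exchanger pendrin, fell from 6.22, 6.11 and 6.12 to 3.46, 3.39 and 3.41, with 93.1% of the fall of 2.73 present at 600. Of 11 proximal tubule genes 2 rose and 2 fell.

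Among the 8 measured genes of osmolyte accumulation 4 rose and 2 fell (75% called, against 40.3% of all genes). Akr1b1, the aldose reductase that makes sorbitol, read 7.19 on average in the 300 culture, 8.51 in the 600 culture and 9.10 in the 900 challenge, a rise of 1.91. Slc5a3, the inositol transporter, rose by 2.34, from 4.69 through 5.96 to 7.03, and 54.2% of that was present at 600. Nfat5 itself rose by 0.53 and the amino acid transporter Slc38a2 by 0.27. The members that fell were Slc6a6, the taurine transporter (-0.26), and Gdpd5, a phosphodiesterase that breaks down the osmolyte glycerophosphocholine (-1.60), 74.9% of whose fall was present at 600. Slc6a12, the betaine transporter, was not analysed here.

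Of 18 genes for ion pumps and volume regulation 10 rose and 7 fell (94.4% called, against 40.3% of all genes), with a median of 0.29. The largest rises were in Fxyd4 (3.42 ± 0.13) and Fxyd2 (2.79 ± 0.09), regulators of the sodium pump, and in the kinase gene Wnk4 (2.15 ± 0.12). They differed in course, since 92.8% of the rise of Fxyd4, 59.0% of that of Fxyd2 and 44.3% of that of Wnk4 were present at 600. The rise of Slc12a2, the sodium, potassium and chloride cotransporter that restores cell volume, came mostly afterwards. It read 6.42, 6.40 and 6.41 in the 300 culture, 6.45, 6.50 and 6.52 in the 600 culture and 7.02, 7.02 and 6.97 in the 900 challenge. In the 600 challenge Slc12a2 averaged 6.90. Fxyd5, another pump regulator, fell by 0.97.

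Of 19 chaperone genes 8 rose and 5 fell (68.4% called, against 40.3% of all genes), and the median was 0.17. The rises above 1 log unit were those of Hspa4l (2.13), Hspa2 (1.95) and Hsph1 (1.68), the first and last of which encode large chaperones of the HSP110 family that help HSP70 exchange nucleotide. The 600 culture showed 34.1% of the rise of Hspa4l and 37.3% of that of Hsph1. The genes Hspa8 (0.01) and Hsp90ab1 (-0.08) were not called. Among these genes the Hsph1 promoter is shown for its match to the heat shock element, a motif of heat shock factors (RefSeq, GRCr8, chr12:10427292-10427367, plus strand, match in capitals).
Hsph1: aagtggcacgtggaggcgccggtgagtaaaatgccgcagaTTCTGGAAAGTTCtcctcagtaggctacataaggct
The letters GAA, any 2 bases, TTC, any 2 bases and GAA, sought on both strands, stand in 5 of the 15 available promoters of this list and in 0.736% of all promoters, and 2 of these 5 genes rose.

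Interferon response genes rose as a rule: 19 of 23 rose and 1 fell, with a median of 1.06, of which 0.78 was present at 600. Mx1, an antiviral GTPase, read 3.39, 3.09 and 2.44 in the 300 culture, 6.36, 5.98 and 6.08 in the 600 culture, and 7.32, 7.17 and 7.21 in the 900 challenge. Its rise of 4.27 ± 0.24 (adjusted p = 2.63e-09) was the largest of the list, and the 3 groups did not overlap. The related Mx2 rose by 2.80, and Irf7, a transcription factor of the interferon pathway, by 3.26. The ubiquitin-like Isg15 rose by 1.38 and had reached its level of the 900 challenge at 600, with means of 4.94, 6.34 and 6.32. Ifit1, which binds foreign RNA, rose by 2.58, and Rig1, an RNA sensor, by 1.24. The GTPase gene Gbp2 went the other way, from 6.25, 6.27 and 6.29 to 5.27, 5.01 and 5.21. In the 600 challenge Mx1 averaged 3.46.

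The element shared by many interferon-stimulated genes is shown for 4 members that rose, each from its RefSeq promoter in GRCr8 with matches in capitals to GAAA, any 2 bases and GAAA, or to its reverse complement. They lie at chr1:205800043-205800132 (minus strand) for Irf7, chr12:41330385-41330465 (plus) for Oas1a, chr1:241527242-241527325 (plus) for Ifit3 and chr6:48788218-48788307 (minus) for Rsad2.
Irf7: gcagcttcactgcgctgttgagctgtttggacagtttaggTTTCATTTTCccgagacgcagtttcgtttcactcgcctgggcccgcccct
Oas1a: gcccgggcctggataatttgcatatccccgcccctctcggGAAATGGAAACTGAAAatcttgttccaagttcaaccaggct
Ifit3: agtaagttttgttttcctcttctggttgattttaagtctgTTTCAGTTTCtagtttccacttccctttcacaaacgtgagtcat
Rsad2: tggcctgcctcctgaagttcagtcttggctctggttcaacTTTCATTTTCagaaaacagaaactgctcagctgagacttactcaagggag
The run in Oas1a holds 2 overlapping matches. The element stands in 10 of the 16 available promoters of the list and in 3.77% of all promoters. Of these 10 genes 8 rose and 1, Gbp2, fell, so genes with the same letters moved in both directions.

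The largest falls were led by Cxcl6, a chemokine that attracts neutrophils. It read 8.65, 8.56 and 8.52 in the 300 culture, 4.19, 4.59 and 4.11 in the 600 culture, and 3.62, 4.08 and 3.68 in the 900 challenge. Its fall was -4.78 ± 0.13 (adjusted p = 7.45e-13), and the 600 culture showed 89.4% of it. All 3 arrays of the 600 culture lay above those of the 900 challenge, the closest at 4.11 against 4.08. In the 600 challenge Cxcl6 averaged 8.54. Krt17, a keratin of stressed epithelia, fell from 6.34, 6.54 and 6.44 through 3.17, 4.07 and 4.17 to 1.78, 1.96 and 2.22. The iron carrier transferrin, Tf, fell by 3.79 and the matrix protein gene Fbln2 by 3.63.

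Of the other largest falls, many are genes of macrophages: the complement receptor gene Vsig4 (-4.34 ± 0.08), the complement subunits C1qa (-4.17 ± 0.15) and C1qc (-3.60 ± 0.13), the mannose receptor Mrc1 (-3.63 ± 0.08), the Fc receptor genes Fcgr2b (-3.35 ± 0.10) and Fcer1g (-3.32 ± 0.08), and Rac2, a GTPase of blood cells (-4.05 ± 0.24). C1qa read 6.02, 6.05 and 6.17 in the 300 culture, 3.48, 3.79 and 3.62 in the 600 culture, and 1.72, 1.94 and 2.06 in the 900 challenge. Its groups did not overlap, which the choice of genes required for the ends of the span, and its levels in the 900 challenge lay under the lower quartile. The chemokine gene Ccl6 (-3.88 ± 0.15), Sertad4 (-3.43 ± 0.08) and Prnd (-3.42 ± 0.14) also belong to the set.

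All 18 leukocyte markers fell, with a median of -2.50, of which -1.42 was present at 600. Their summed level was 103.0 to 104.3 in the 300 culture, 76.60 to 78.70 in the 600 culture and 59.69 to 60.35 in the 900 challenge, and no marker was at 0 on the log scale. In such bulk RNA, fewer cells of a type and less RNA per cell cannot be told apart. The markers differed in course. Cd163, a scavenger receptor of macrophages, read 5.07, 5.22 and 5.33, then 2.75, 2.71 and 2.79, then 2.60, 2.83 and 2.71, so that 98.4% of its fall was present at 600. Csf1r, the receptor of the macrophage growth factor, read 5.23, 5.31 and 5.33, then 4.82, 4.98 and 5.16, then 3.45, 3.45 and 3.49, and 16.6% of its fall was present at 600. The general leukocyte marker Ptprc fell by 1.06, with 18.7% present at 600. Of 9 genes of MHC class II, which presents antigen, 8 fell and none rose. The largest of these falls was RT1-Da (-3.06), and Cd74, the chain that escorts class II molecules, fell by 1.52 and is also in the leukocyte list.

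Among 25 inflammation genes 19 fell and 3 rose over the span, with a median of -0.87. In the second part alone 11 rose and 7 fell, with a median of 0.10, where 6.43% of all features were called higher and 11% lower. For 15 of the 25 genes the 600 culture lay nearer to the 900 challenge than to the 300 culture. This rests on a test of the first part of the span minus the second, which calls 7.3% of all features (4.44% above and 2.86% below 0). Il1a, an interleukin 1, read 7.39, 7.51 and 7.39 in the 300 culture, 4.25, 4.33 and 3.98 in the 600 culture and 3.59, 3.71 and 3.56 in the 900 challenge. Its relative Il1b fell from 6.01 to 2.52 at 600 and stood at 2.90 at 900. The neutrophil chemokine Cxcl1 (7.76, then 5.17, then 5.70) and Tnf (5.62, then 3.91, then 4.67) were lowest in the 600 culture. The 3 members that rose over the span were Tnfsf15, a TNF family cytokine (2.71), Cxcl10, an interferon-induced chemokine (2.41), and Ccl20, which attracts lymphocytes (1.32). Ccl20 did so after 600, with 4.32, 4.17 and 4.20 in the 300 culture, 4.29, 4.21 and 4.08 in the 600 culture and 5.51, 5.50 and 5.64 in the 900 challenge. Leukocyte markers fell over the same span, as given above, and their part in the falls of inflammation genes was not tested.

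Of 19 fibroblast and smooth muscle genes 15 fell and 1 rose, with a median of -1.18, of which -0.26 was present in the 600 culture. For 10 of them the 600 culture lay nearer to the 300 culture. Their summed level was 112.2 to 112.9 in the 300 culture, 106.9 to 108.3 in the 600 culture and 91.89 to 94.60 in the 900 challenge, with none at 0. Acta2, the actin of smooth muscle and myofibroblasts, read 8.54, 8.55 and 8.54, then 8.46, 8.54 and 8.54, then 7.63, 7.68 and 7.66, so that 3.12% of its fall was present at 600. Of the contractile genes, Cnn1 fell by 2.59 with 23.5% present at 600, where its difference of -0.61 was called (adjusted p = 0.0108). Myh11 fell by 1.97 with 18.4% present at 600, where its difference of -0.36 was not called (adjusted p = 0.0589). In the 600 challenge, however, Acta2 averaged 7.84, Cnn1 3.02 and Myh11 3.47, beside 7.66, 3.14 and 3.29 in the 900 challenge. Postn, a matrix protein of fibroblasts, fell by 3.25 with 77.3% present at 600. It averaged 5.14 in the 600 challenge, against 3.33 in the 900 challenge. The member that rose was S100a4, a calcium-binding protein of motile cells (2.55). Pdgfra, Dcn and Lum were not called over the span, with means between 2.16 and 3.69 in the 300 culture, the 600 culture and the 900 challenge.

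In the extracellular matrix list 22 of 28 genes fell and 3 rose (89.3% called, against 40.3% of all genes), with a median of -1.09. Fibronectin, Fn1, fell by 1.46, the growth factor gene Tgfb2 by 1.95 and the gelatinase gene Mmp9 by 2.91, of which 88.3% was present at 600. The 3 that rose were the collagenase gene Mmp13 (3.41), the metalloproteinase inhibitor gene Timp3 (2.27) and osteopontin, Spp1 (0.47). Most fibroblast and smooth muscle markers fell over the same span, and their part in the matrix falls was not tested. Endothelial genes were mixed, with 5 of 13 higher, 6 lower (84.6% called) and summed levels of 63.12 to 63.24, 65.10 to 67.10 and 63.41 to 64.58. Among them Plvap, a protein of fenestrated vessels, rose by 1.79 and Tie1, a vessel receptor, fell by 1.06.

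Most cell division genes fell over the span. Of 25 mitosis and spindle genes 23 fell and none rose, with a median of -0.71. In the first part 7 of them fell, where 8.84% of all features were called lower and 8.33% higher (17.2% in all). In the second part 18 fell, where 11% were called lower and 6.43% higher (17.4%). The summed level of the list was 109.5 to 110.5 in the 300 culture, 103.4 to 105.1 in the 600 culture and 89.47 to 95.32 in the 900 challenge. Its arrays thus lay furthest apart in the 900 challenge, so the size of the fall depends on the array. Ttk, a spindle checkpoint kinase, fell by 1.41, and cyclin B1, Ccnb1, by 1.31. Cdc20, which starts anaphase, fell by 1.21 with 31.1% present at 600. Top2a, which untangles DNA, read 5.08, 5.03 and 4.91 in the 300 culture, 5.23, 5.06 and 5.12 in the 600 culture, and 3.72, 3.88 and 4.33 in the 900 challenge. DNA replication differed: 7 of 21 genes fell and none rose over the full span, while 5 rose in the first part and 12 fell in the second. The replication clamp gene Pcna rose in the first part, by 0.33, and was not called over the span (0.11). Summed levels of the replication list also spread most in the 900 challenge. They were 92.92 to 94.87, 96.13 to 97.12 and 85 to 90.04 in the 300 culture, the 600 culture and the 900 challenge.

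Promoters of cell division genes often carry the letters TTTGAA of the cell cycle genes homology region. It is shown for 2 genes that fell, Cdc20 (RefSeq, GRCr8, chr5:137255805-137255890, minus strand) and the mitotic kinase gene Cdk1 (chr20:19265181-19265292, plus strand), with matches in capitals.
Cdc20: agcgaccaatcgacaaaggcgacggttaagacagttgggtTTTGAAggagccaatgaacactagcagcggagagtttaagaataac
Cdk1: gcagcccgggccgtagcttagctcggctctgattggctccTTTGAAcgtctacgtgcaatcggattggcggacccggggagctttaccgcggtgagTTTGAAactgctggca
On either strand these letters stand in 14 of the 20 available promoters of the mitosis list and in 18.1% of all promoters. Of these 14 genes 13 fell, and Mad2l1 (0.21) was not called.

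**Figure D2:**
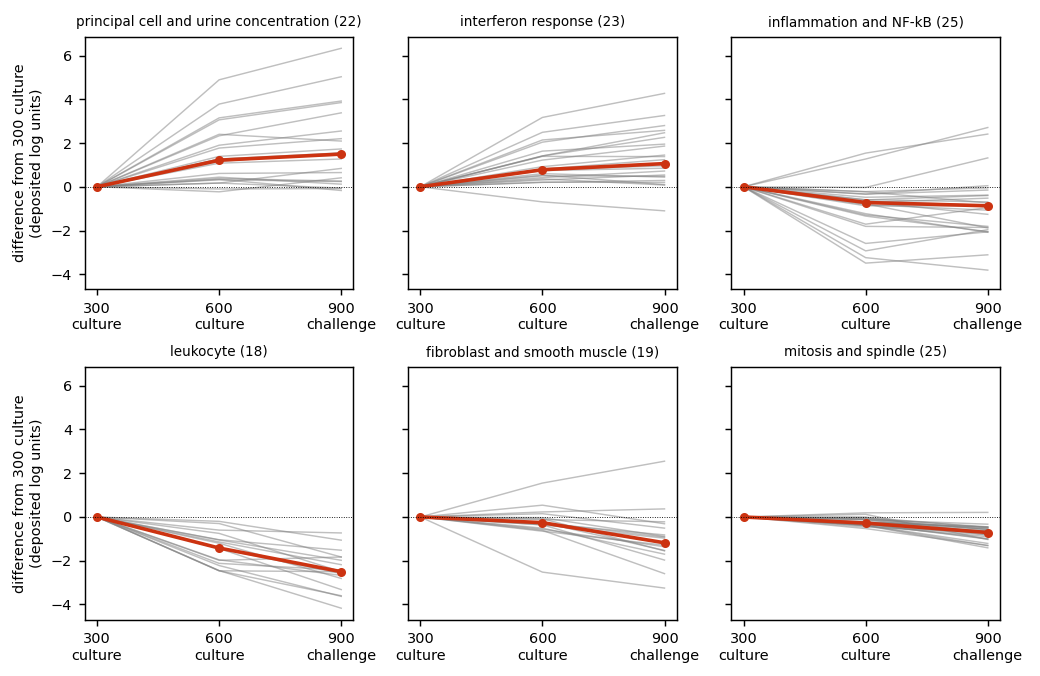
Mean difference from the 300 culture in deposited log units (y axis) at the 300 culture, the 600 culture and the 900 challenge (x axis) for the genes of 6 lists, with the number of measured genes in brackets. Grey lines are genes and the red line joins the list medians. The principal cell, interferon and inflammation medians lie at 1.21, 0.78 and -0.72 in the 600 culture. In the 900 challenge they lie at 1.50, 1.06 and -0.87. The fibroblast and mitosis medians lie at -0.26 and -0.28 in the 600 culture, and at -1.18 and -0.71 in the 900 challenge. The 600 challenge is not drawn.

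Prostaglandin genes, which act on salt and water transport in the medulla, had 6 of 19 members higher and 4 lower. That is 52.6% called, against 40.3% of all genes. Both cyclooxygenases rose, by different courses. Ptgs1 rose by 2.23, from 5.47 through 7.07 to 7.70. Ptgs2, the inducible enzyme, read 3.84, 3.62 and 4.07 in the 300 culture, 3.37, 3.32 and 3.22 in the 600 culture and 5.19, 5.05 and 4.96 in the 900 challenge. The 600 culture thus lay below both ends, and in the 600 challenge Ptgs2 averaged 5.84. The prostaglandin exporter gene Abcc4 rose by 1.90 ± 0.05 in steps of 0.95 and 0.95. The prostacyclin receptor gene Ptgir fell by 1.78.

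Of 28 ATF4 and CHOP targets, genes of the amino acid and stress response, 12 rose and 4 fell. In the first part 3 rose and 7 fell, and in the second 16 rose and 2 fell. Over all features 8.33% were called higher and 8.84% lower in the first part, and 6.43% higher and 11% lower in the second. Nupr1, a stress-induced chromatin protein, rose by 1.62 ± 0.06 with 36.0% present at 600, and the transcription factor CHOP, Ddit3, by 0.82 with 23.7%. The amino acid response element TGATGCAA stands, on either strand, in 6 of the 26 available promoters of the list, against 0.743% of all, and 3 of these 6 genes rose. ER folding genes had 4 of 20 higher and 5 lower over the span (45% called, near the 40.3% of all genes). In the first part 8 of them were lower, and in the second 8 were higher. Hspa5, the main chaperone of the ER, went from 8.11, 8.10 and 8.12 to 7.89, 7.92 and 7.90 and back to 8.18, 8.11 and 8.13. The ER stress element (CCAAT, any 9 bases and CCACG, either strand) stands in 7 of the 15 available promoters, against 0.0765% of all, and 2 of these 7 genes fell over the span.

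The remaining lists had medians within 0.21 of 0. Higher and lower genes numbered 9 and 9 of 21 for epithelial junctions and keratins, 4 and 7 of 16 for p53 and growth arrest, 7 and 8 of 24 for NRF2 antioxidant genes, and 6 and 7 of 19 for sterol synthesis. They were 4 and 7 of 15 for fatty acid synthesis, 5 and 7 of 23 for AP-1 and early response genes, and 10 and 6 of 25 for hypoxia and glycolysis. For the respiratory chain they were 8 and 1 of 25, for the proteasome 4 and 6 of 25, and for calcineurin and NFAT 1 and 4 of 13. The share of genes called was below the 40.3% of all genes for the respiratory chain (36%), intercalated cell (33.3%), DNA replication (33.3%), proximal tubule (36.4%), calcineurin (38.5%) and proteasome (40%) lists.

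**Figure D3:**
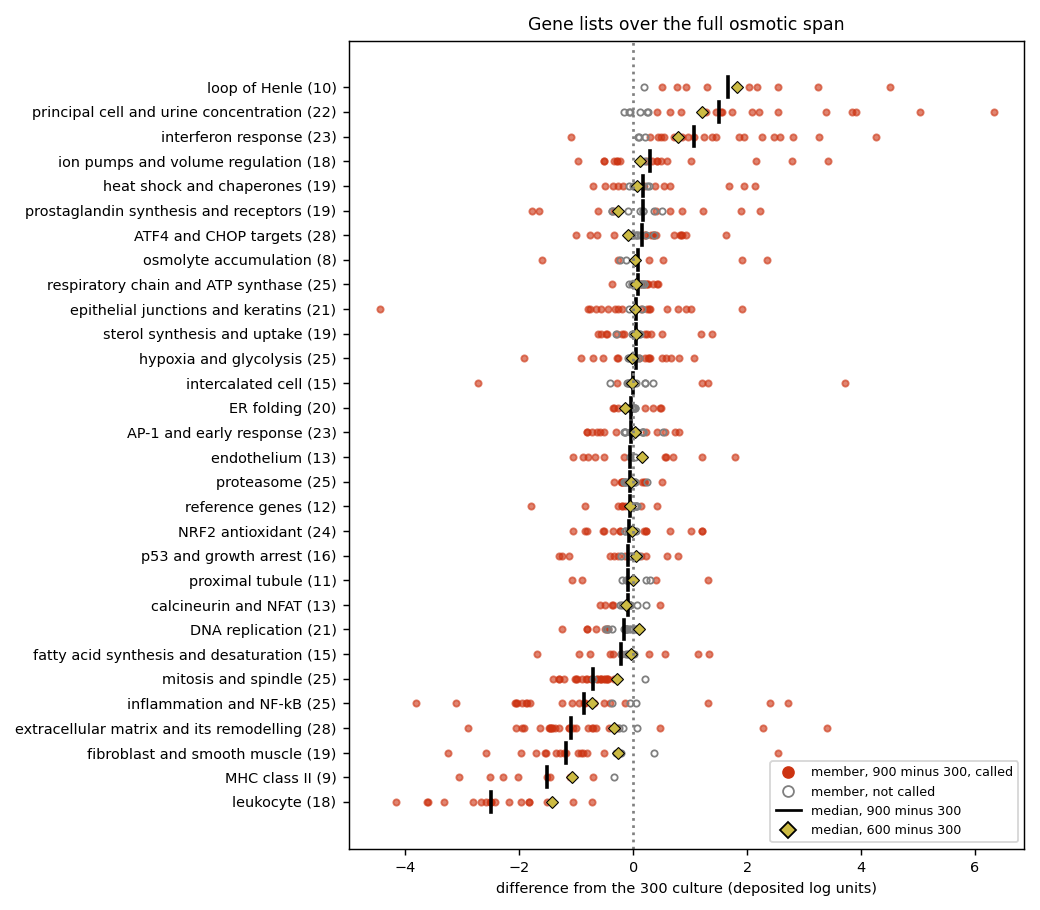
Difference of the 900 challenge from the 300 culture in deposited log units (x axis) for the genes of 30 lists (rows, with the number of measured genes), filled where called and open where not. The bar is the list median and the diamond the median of the 600 culture minus the 300 culture. Medians run from -2.50 for leukocyte markers to 1.67 for the loop of Henle list, and for the leukocyte list the diamond at -1.42 lies between 0 and the bar.

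The 600 culture already showed a part of most large differences. For the 696 rises of 1 log unit or more the median share of the difference already present at 600 was 59.0%, with quartiles of 42.9 and 74.8%. For the 920 that fell it was 56.6%, with quartiles of 39.5 and 77.4%. The comparisons of the 600 culture and of the 900 challenge with the 300 culture use the same 300 arrays, so errors of those arrays enter both. A share does not depend on the base of the logarithm. It is a share of log differences and not of the amount of transcript. Among all called features, without the minimum of 1 unit, the medians were 55.8% for rises and 46.1% for falls.

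Of the 696 rises, 466 had a share between 25 and 75%, 136 between 75 and 100%, and 37 above 100%, where the 600 culture lay beyond the 900 challenge. A share between 0 and 25% was found for 48, and the remaining 9 were below 0, where the mean of the 600 culture lay on the other side of the 300 culture. Of the 920 falls, 587 lay between 25 and 75%, 200 between 75 and 100%, 50 above 100%, 69 between 0 and 25% and 14 below 0. The first part of the span was called for 571 of the rises (82.0%) and 801 of the falls (87.1%), and the second part for 502 (72.1%) and 647 (70.3%). These counts include 406 rises (58.3%) and 548 falls (59.6%) for which both parts were called.

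By the test of the first part against the second, the 600 culture lay nearer to the 900 challenge for 224 of the rises (32.2%) and 261 of the falls (28.4%). It lay nearer to the 300 culture for 51 (7.33%) and 126 (13.7%). For the other 421 and 533 the test did not tell its place from midway. The counts nearer to the 300 culture were sensitive to single arrays of the 600 culture, at 65 falls and 28 rises without its replicate 3 and 71 falls without its replicate 2. Without that replicate 2 the test called 1372 of all features instead of 2068. The processing moved the falls nearer to the 300 culture as well. They numbered 85 with arrays centred on their medians, 93 after quantile normalization and 94 with a replicate block, against 126. The rises nearer to the 300 culture numbered 57, 58 and 52 in these settings, against 51.

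**Figure D4:**
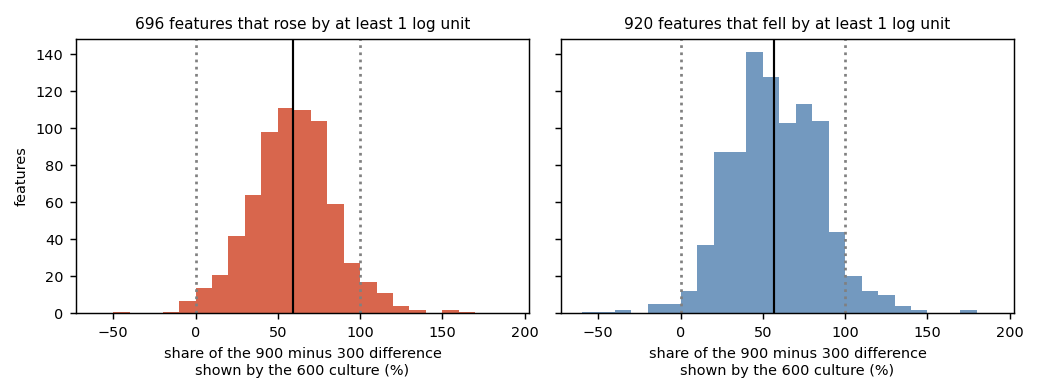
Share of the 900 minus 300 difference that the 600 culture already showed, in percent (x axis), against the number of features (y axis), for the 696 rises (left) and 920 falls (right) of at least 1 log unit. Dotted lines mark 0 and 100% and the solid line the median, at 59.0 and 56.6%. Most features lie between 25 and 75%.

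The genes whose first part most exceeded their second part, chosen by that value and so given without a test of it, included secreted inflammatory proteins. Csf3, the growth factor of neutrophils, read 7.13, 7.10 and 7.14 in the 300 culture, 3.81, 3.74 and 3.66 in the 600 culture and 4.43, 4.63 and 4.58 in the 900 challenge, a share of 131%. Olfm4, a secreted glycoprotein of epithelia, averaged 6.07 ± 0.06 (SD, n = 3), then 2.21 ± 0.29, then 3.01 ± 0.05. In the 600 challenge Olfm4 averaged 7.41 and Csf3 6.84. The chemokine gene Cxcl2 (150%) and Il1b (112%) belong here too. Among rises the share was 91.8% for Lypd2 and 105% for the protease inhibitor gene Serpina3n, which read 2.23, 2.66 and 2.55, then 6.25, 6.16 and 6.25, then 6.04, 6.09 and 5.97. Dlgap5l2 (129%) has 3 features, which fell by 2.95, 2.85 and 2.36.

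At the other end, chosen by the same value, stood genes whose difference lay between the 600 culture and the 900 challenge. S100a5, a calcium-binding protein, read 4.50, 4.28 and 4.59 in the 300 culture, 3.97, 4.24 and 4.20 in the 600 culture and 6.42, 6.35 and 6.37 in the 900 challenge. Its rise over the span was 1.93 ± 0.08, and its share was -16.7%, since the 600 culture lay lower than the 300 culture. Sla, an adaptor protein of immune cell receptors, rose by 1.90 with a share of -6.92%, and Ptgs2 is in the same set with -44.3%. Mmp7, a metalloproteinase of epithelia, read 5.22, 5.00 and 5.07, then 5.38, 5.30 and 5.23, then 2.94, 2.97 and 3.22, and fell by 2.06 over the span. Car3, a carbonic anhydrase, went up from 6.43 to 7.08 and then down to 5.23, and Tgfb3, a growth factor, from 5.78 to 6.28 and then to 4.66. The smooth muscle gene Lmod1 fell by 1.17 and the pericyte proteoglycan gene Cspg4 by 1.42, both with a first part that was not called. In the 600 challenge Mmp7 averaged 3.32, Tgfb3 4.66, Lmod1 2.13 and Cspg4 3.03, beside 3.04, 4.66, 2.12 and 2.79 in the 900 challenge. The distance was larger for S100a5 (5.21 against 6.38), Sla (5.46 against 6.76), Car3 (6.04 against 5.23) and Ptgs2 (5.84 against 5.07).

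A comparison of the ends alone leaves out genes that turned at 600. Features called higher in the first part and lower in the second numbered 270, of which 96 were called over the full span. Those lower and then higher numbered 133, of which 53 were called. By contrast, 769 features rose in both parts and 1079 fell in both. Defb1, an antimicrobial peptide of the kidney epithelium, read 3.70, 3.57 and 3.58 in the 300 culture, 5.53, 5.49 and 5.42 in the 600 culture and 3.26, 3.56 and 3.44 in the 900 challenge. Its ends differed by -0.20 (adjusted p = 0.29). The chloride channel regulators Clca1 (2.59, 3.98 and 2.52) and Clca4 (4.12, 5.59 and 4.24) also peaked at 600, with ends that were not called (adjusted p = 0.813 and 0.422). Slc5a7, the choline transporter, peaked there too, with 2.23, 4.32 and 3.20, but its ends differed, by 0.97 ± 0.13 (adjusted p = 3.85e-05).

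In the opposite direction, Ptges, which makes prostaglandin E2, read 4.66, 4.49 and 4.52, then 3.76, 3.35 and 3.08, then 4.92, 4.93 and 4.88. Its arrays in the 900 challenge all lay above those of the 300 culture, and the difference of 0.36 ± 0.13 did not pass the threshold (adjusted p = 0.0521). The ATF4 target Trib3 was placed alike, with means of 3.17, 2.40 and 3.53 and an adjusted p of 0.0523. The chemokine gene Ccl3 read 5.96, 3.52 and 4.59 on average, and Rassf4, a RAS-association domain protein, 4.76, 3.14 and 4.09.

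**Figure D5:**
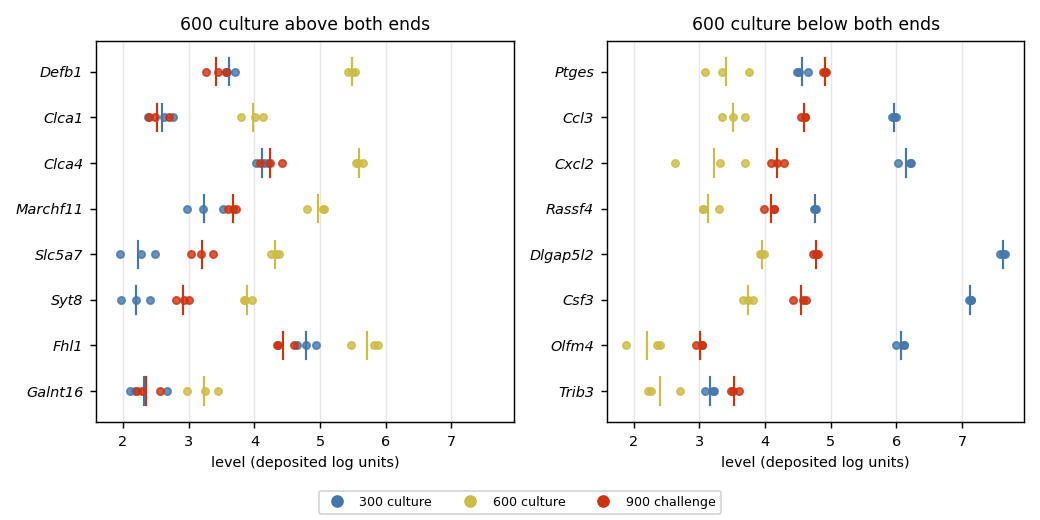
Levels in deposited log units (x axis) of the 8 genes with the clearest peak (left) and the 8 with the clearest trough (right) in the 600 culture. Points are single arrays and ticks are means of 3. For Defb1 the 600 culture stands at 5.48 and both ends between 3.26 and 3.70, and for Ptges it stands at 3.40 and both ends between 4.49 and 4.93.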

How the data were processed

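RNA of primary cultured rat cells was labelled with biotin and read on 18 arrays in 6 groups of 3, per the labels' protocols. The deposited values are log-scale expression scores per feature. How the authors summarised and normalised the arrays, and the base of the logarithm, are not given in the sources used here. The test had been planned on log values, and the unit was recorded as a score because the base is open.

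The deposited values were used as they stand in limma 3.58.1 (R 4.3.3), with 6 group means over all 18 arrays, 12 residual, 2.03 prior and 14.0 total degrees of freedom, two-sided, with Benjamini-Hochberg adjustment over 28328 features and a threshold of 0.05. The share at 600 is the difference of the 600 culture from the 300 culture over that of the 900 challenge, with a 95% Fieller interval from the moderated variances.

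The platform's probe gene table gave 1 symbol to 15295 features, several to 322 and none to 12711. Of the features with 1 symbol, 15264 matched the GRCr8 gene table by Entrez identifier. Named genes were the 15 largest rises and falls without overlap of the arrays, the 8 most complete and the 8 least complete at 600 among differences of at least 1 log unit, the 8 clearest turns each way, and members of 30 lists (562 of 617 symbols measured). Placeholder symbols, olfactory receptors and small RNAs were passed over. The groups, lists and rules were chosen with earlier results of these data known.

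The alternatives were the 9 arrays of these groups alone, median centring, quantile normalization, a filter on dim features, another variance prior, a replicate block, and leaving out each of those 9 arrays. The fit was also run on simulated data with far fewer changed features than were called here. That run does not bear on the counts given above.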

Additional observations from a re-analysis of the deposited data

How the results depend on the processing

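Over the alternatives, the count of features called between the ends lay between 7954 and 8971 when single arrays were left out, against 8973 with all, and no result reversed. Other counts and shares moved by under 1.5 times or by less than their spread, except those of the test of the first part of the span against the second. With only the 9 arrays of these groups, the 600 culture lay nearer to the 300 culture for 33 rises (51 with all arrays) and 80 falls (126 with all). Leaving out single arrays put these counts between 28 and 50 and between 65 and 136, and put the number of features called by this test between 1372 and 1851. The replicate numbers do not pair the arrays: deviations of same-numbered arrays correlated between -0.0196 and 0.0312. With the number as a replicate block 8838 features were called. The share of higher calls was 43.3%, 47.7% after median centring and 48.6% after quantile normalization, and these scalings moved the median difference of all features by 0.025 and 0.016 log units. Among the genes named for their size or course, Marchf11 (adjusted p up to 0.0953) and Fhl1 (up to 0.113) lost their full-span call under some alternatives. Ptges (down to 0.00818) and Trib3 (down to 0.0188) gained one. The sources used here do not give signal over background, which limits what can be said of levels under the lower quartile.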

Other observations

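Genes often used as references for normalization were not all level. Of 12 measured, 2 rose and 6 fell, with a median of -0.06. Hprt1, a purine salvage enzyme, read 7.73, 7.79 and 7.73 in the 300 culture and 5.96, 5.83 and 6.06 in the 900 challenge, a fall of 1.80 ± 0.06 (limma adjusted p = 2.09e-11), of which 49.9% was present at 600. The transferrin receptor gene Tfrc fell by 0.85, beside the fall of Tf by 3.79. Features without a single gene symbol made up 197 of the rises and 255 of the falls of at least 1 log unit, and were not named here.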
